A study of Saccharomyces cerevisiae with 8 samples.

Results

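The lysine biosynthesis genes of budding yeast (Saccharomyces cerevisiae) were followed in 4 groups, the wild type (wt) and mutants that lack DOT1 (dot1), SWI4 (swi4) or ARD1 (ard1). They are the 9 genes LYS20 (YDL182W), LYS21 (YDL131W), LYS4 (YDR234W), LYS12 (YIL094C), LYS2 (YBR115C), LYS5 (YGL154C), LYS9 (YNR050C), LYS1 (YIR034C) and LYS14 (YDR034C), chosen by their annotated symbol, and all 9 were among the 5449 genes measured. Each was read by 1 probe set, a group of short probes that together report the transcript level, and 0 of the 9 probe sets is marked by the array's design as shared between transcripts. Each of the 4 groups had 2 arrays from cultures in rich medium (YPD) at 30 C, taken at an optical density (OD600) of 0.7. The labels give each strain by its deleted gene only and call the replicates biological. Nothing further in them says how the cultures were kept apart, so a p-value here measures the spread between these arrays. Dot1 is a histone methyltransferase, Swi4 binds DNA within the cell-cycle factor SBF, and Ard1 is the catalytic part of the N-terminal acetyltransferase NatA.

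Yeast makes lysine by the alpha-aminoadipate pathway, a route found mainly in fungi. It starts from acetyl-CoA and 2-oxoglutarate, runs through the mitochondrion to 2-oxoadipate, and is completed in the cytosol by way of aminoadipate and saccharopine. Homocitrate synthase, the enzyme that opens the route, is inhibited by lysine itself. The pathway genes answer to Lys14, an activator that works with the intermediate aminoadipate semialdehyde, and to Gcn4, the activator of the general control of amino acid synthesis, which is governed chiefly at the level of translation.

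Levels are log2 of the deposited intensities, and a change is the difference of 2 group means on that scale with the standard error (SE) of the limma fit, n = 2 arrays per group. A gene is said to have risen or fallen when its adjusted p was below 0.05 over all genes. The array is a bulk measure of a culture, so fewer cells with a transcript and less of it per cell cannot be told apart. The deleted genes were low on the arrays of their own mutants, with changes of −3.31 for DOT1, −0.91 for SWI4, which is dim in every group, and −5.23 for ARD1. Over all genes, wt replicate 2 lay above wt replicate 1 by a median of 0.14, but over the lysine genes the median was −0.03 and 4 of 9 were higher in replicate 2. Over all genes, dot1 had a median change of −0.07, swi4 −0.10 and ard1 −0.07.

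The lysine genes did not move as a block. In ard1, 4 of the 9 rose, LYS20, LYS21, LYS12 and LYS14, and 1 fell, LYS4. In swi4, LYS9 and LYS12 rose and 0 fell. In dot1, limma called 0 of the 9, with 4 at an unadjusted p under 0.05, LYS12, LYS9 and LYS1 higher and LYS4 lower, where 22.5% of all genes were under it. Over all genes the called share was 18.5% in ard1 (6.26% up and 12.2% down), 12.2% in swi4 (5.16% up and 7.01% down) and 2.46% in dot1 (1.12% up and 1.34% down). These shares also moved with single arrays left out, from 3.76% to 18.1% in ard1, from 0.679% to 26.3% in swi4 and from 0.0734% to 14.8% in dot1. The lowest were without ard1 replicate 2, swi4 replicate 1 and dot1 replicate 2, and the highest were all without wt replicate 1. The median change of the 9 genes was 0.40 in ard1, 0.23 in swi4 and 0.11 in dot1. It was 0.36 in swi4 without swi4 replicate 1 and 0.10 without swi4 replicate 2, and in dot1 0.17, 0.21 and 0.19 without dot1 replicate 1, dot1 replicate 2 and wt replicate 2, so swi4 and dot1 have no settled order. In ard1 it ran from 0.32 to 0.44. The 3 comparisons share the wt arrays and are therefore not independent of each other.

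**Figure D1:**
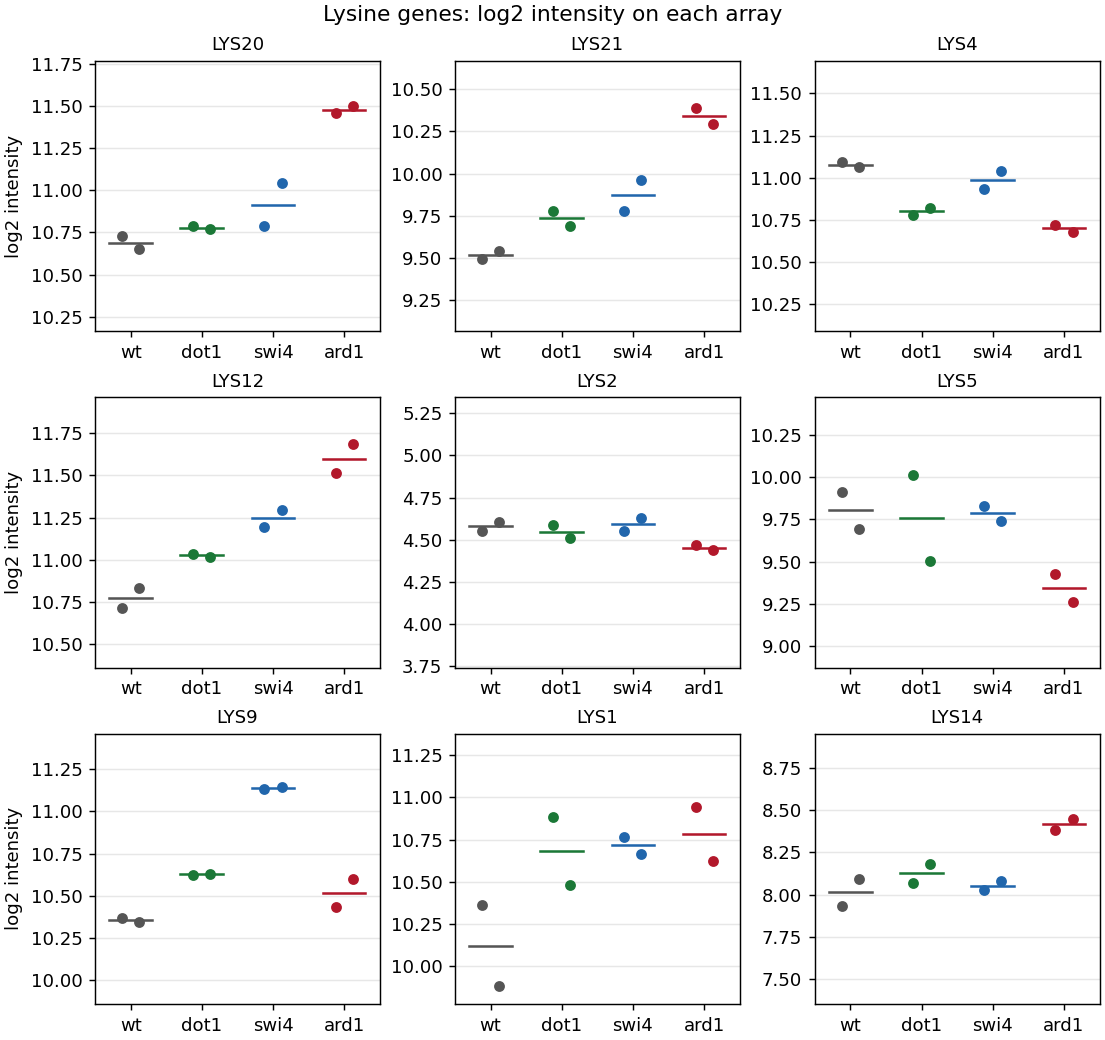
Log2 intensity of the 9 lysine genes on each of the 8 arrays; points are arrays, replicate 1 on the left, bars are group means, and every panel spans the same height on the log2 scale. LYS20, LYS21 and LYS12 are highest on both ard1 arrays, LYS9 on both swi4 arrays, and LYS2 stays near 4.5 throughout.

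LYS20 and LYS21 encode the 2 homocitrate synthases, which carry out the committed step. LYS20 read 10.73 and 10.65 on the wt arrays, 10.79 and 10.77 for dot1, 10.79 and 11.05 for swi4 and 11.46 and 11.50 for ard1. Both ard1 arrays lay above all 6 others. The dot1 and swi4 arrays overlapped and lay above wt, the furthest being swi4 replicate 2 at 11.05. LYS20 rose in ard1 by 0.79 ± 0.11 (1.73-fold, adjusted p = 0.00550), while its changes of 0.09 in dot1 and 0.23 in swi4 did not pass (adjusted p = 0.697 and 0.212). The ard1 call was lost without ard1 replicate 2 (0.77, adjusted p = 0.0554).

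LYS21 read 9.50 and 9.54 on the wt arrays, 9.78 and 9.69 for dot1, 9.78 and 9.96 for swi4 and 10.39 and 10.29 for ard1. All mutant arrays were above both wt arrays, and the ard1 arrays were again apart from the rest. The rise in ard1 was 0.82 ± 0.10 (1.77-fold, adjusted p = 0.00428), and it passed with each of the 4 arrays left out in turn, with adjusted p from 0.0141 to 0.0409. In swi4 the change was 0.35 ± 0.10 (adjusted p = 0.0669), called after median centring or, at adjusted p = 0.0347, after quantile normalization, and in dot1 0.22 ± 0.10 (adjusted p = 0.263). The 2 isoenzyme genes thus had ard1 changes within 1 SE of each other.

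LYS4 encodes homoaconitase and LYS12 homoisocitrate dehydrogenase, the mitochondrial enzymes that follow. LYS12 read 10.72 and 10.83 on the wt arrays, 11.04 and 11.02 for dot1, 11.20 and 11.30 for swi4 and 11.51 and 11.68 for ard1. None of the 4 groups overlapped another, and they stood in the order wt, dot1, swi4 and ard1. LYS12 rose in ard1 by 0.82 ± 0.10 (1.77-fold, adjusted p = 0.00424), called whichever array was left out, with adjusted p from 0.0117 to 0.0421. It rose in swi4 by 0.47 ± 0.10 (1.39-fold, adjusted p = 0.0307), a call lost with only swi4 and wt in the fit (adjusted p = 0.0970) and without wt replicate 2 (adjusted p = 0.0580), swi4 replicate 1 (0.153) or swi4 replicate 2 (0.199). In dot1 it changed by 0.25 ± 0.10 (adjusted p = 0.202).

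LYS4 went the other way from its neighbours in the route. It read 11.09 and 11.06 on the wt arrays, 10.78 and 10.82 for dot1, 10.93 and 11.04 for swi4 and 10.72 and 10.68 for ard1, so the wt arrays were the highest and the ard1 arrays the lowest. It fell by 0.38 ± 0.09 in ard1 (1.30-fold lower, adjusted p = 0.0274). This small fall was called without wt replicate 2 (adjusted p = 0.0481) and was lost without wt replicate 1 (0.0566), ard1 replicate 1 (0.120) or ard1 replicate 2 (0.164), with only ard1 and wt in the fit (0.107), and after median centring of the arrays (−0.30, adjusted p = 0.102), which left 4 rises and 0 falls in ard1. The changes of −0.28 in dot1 and −0.09 in swi4 did not pass (adjusted p = 0.128 and 0.505).

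LYS2 encodes aminoadipate reductase, a large enzyme often used as a selectable marker in laboratory strains, and LYS5 encodes the enzyme that attaches its phosphopantetheine arm. LYS2 was dim on every array, at 4.55 and 4.61 on the wt arrays, 4.59 and 4.51 for dot1, 4.55 and 4.63 for swi4 and 4.47 and 4.44 for ard1. The lowest gene mean in the table was 4.02, and only 73 of 5449 genes had a mean below that of LYS2, although the brightness of a probe set also depends on its probes. All 8 arrays lay between 4.44 and 4.63, and its changes of −0.03, 0.01 and −0.13 in dot1, swi4 and ard1 did not pass. Near this floor a change of the transcript would be hard to see, so these values do not show that LYS2 kept its level. The labels do not give the strains' marker genotype, and whether the strains carry LYS2 was not tested.

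LYS5 read 9.91 and 9.69 on the wt arrays, 10.01 and 9.50 for dot1, 9.83 and 9.74 for swi4 and 9.42 and 9.26 for ard1. Only the ard1 arrays stood below all the others. The ard1 change of −0.46 ± 0.18 did not pass (adjusted p = 0.126), and the within-group SD of 0.21 was among the wider ones of the 9 genes. Replicate 2 lay below replicate 1 in every group. With the replicate number added to the limma fit as a block, the SE was 0.12 and the fall in ard1 passed (adjusted p = 0.0269), where 27.8% of all genes were called.

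LYS9 and LYS1 encode the enzymes that make saccharopine and cleave it to lysine. LYS9 read 10.37 and 10.34 on the wt arrays, 10.62 and 10.63 for dot1, 11.13 and 11.15 for swi4 and 10.43 and 10.60 for ard1. The swi4 arrays stood apart from all 6 others, a different pattern from that of LYS20, LYS21 and LYS12. LYS9 rose in swi4 by 0.78 ± 0.09 (1.72-fold, adjusted p = 0.00590), and the value ranged only from 0.77 to 0.80 when single arrays were left out. The call itself was lost without swi4 replicate 1 (adjusted p = 0.0758) or swi4 replicate 2 (0.0678). In ard1 LYS9 changed by 0.16 ± 0.09 and in dot1 by 0.27 ± 0.09 (adjusted p = 0.278 and 0.148).

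LYS1 read 10.36 and 9.89 on the wt arrays, 10.89 and 10.48 for dot1, 10.77 and 10.66 for swi4 and 10.95 and 10.63 for ard1. All 6 mutant arrays were above both wt arrays, and the mutant groups overlapped each other. The changes of 0.56, 0.59 and 0.66 (SE 0.21) in dot1, swi4 and ard1 did not pass, at adjusted p = 0.180, 0.112 and 0.0728. LYS1 had the widest within-group SD of the 9 genes, 0.25, and its 2 wt arrays differed by 0.48. Without wt replicate 1 the changes in swi4 and ard1 were 0.83 and 0.90 and were called (adjusted p = 0.0363 and 0.0361), while that in dot1 was 0.80 and was not (adjusted p = 0.0536).

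LYS14, the gene of the pathway activator, read 7.94 and 8.09 on the wt arrays, 8.07 and 8.18 for dot1, 8.03 and 8.08 for swi4 and 8.38 and 8.45 for ard1. The wt, dot1 and swi4 arrays overlapped, and the ard1 arrays lay above them. LYS14 rose in ard1 by 0.40 ± 0.10 (1.32-fold, adjusted p = 0.0335), a call lost with only ard1 and wt in the fit (adjusted p = 0.115) and with an intensity trend in the variance (0.0807), and its changes of 0.11 in dot1 and 0.04 in swi4 did not pass. The ard1 call was made without wt replicate 2 (adjusted p = 0.0331) and was lost without wt replicate 1 (0.0794), ard1 replicate 1 (0.122) or ard1 replicate 2 (0.193).

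**Figure D2:**
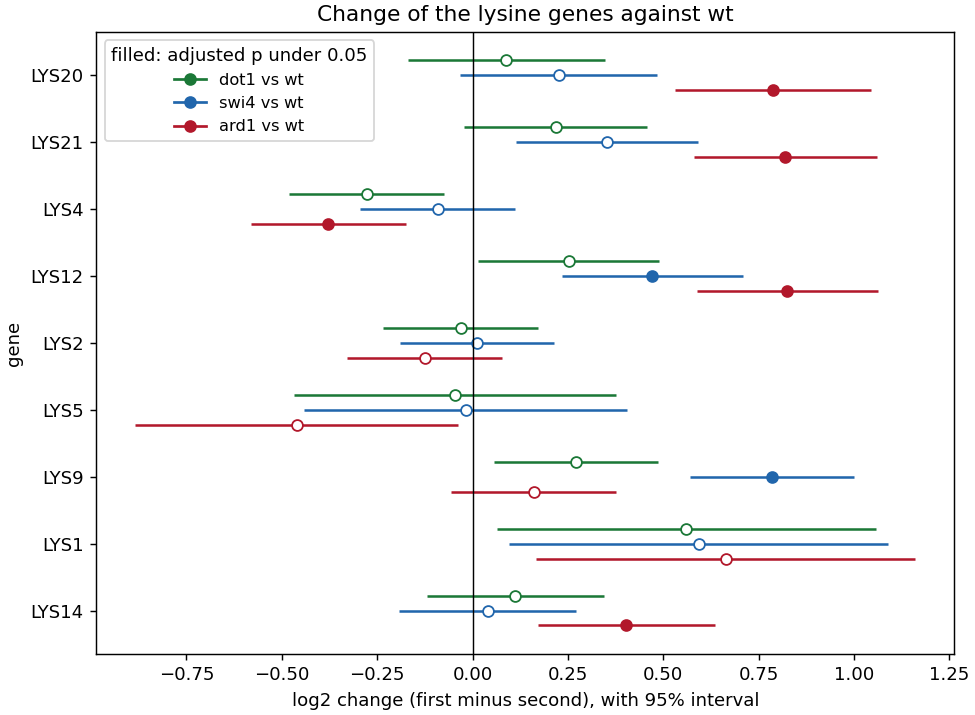
Log2 change of each lysine gene against wt in dot1, swi4 and ard1, with 95% intervals from the limma fit over 8 arrays; filled points passed the adjusted p threshold. The 5 filled ard1 points are the rises of LYS20, LYS21, LYS12 and LYS14 and the fall of LYS4, and the 2 filled swi4 points are LYS9 and LYS12.

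By arrays alone, both ard1 arrays lay apart from both wt arrays for 9 of 9 lysine genes, 6 above and 3 below, where 57.0% of all genes did so, 21.5% above and 35.6% below. The 3 below include LYS2, at a change of −0.13, which read near the floor on every array. In swi4 there were 6 such genes, 5 above and 1 below, against 59.6% of all genes, 22.5% above and 37.1% below. In dot1 there were also 6, 5 above and 1 below, against 42.6% of all genes, 15.8% above and 26.8% below.

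Comparing the mutants with each other tested where their lysine genes differed. Between ard1 and dot1, 3 of the 9 were higher in ard1 and 0 lower, against 14.1% of all genes called, 5.67% higher and 8.44% lower. LYS20 was higher in ard1 by 0.70 ± 0.11 (adjusted p = 0.0119), LYS21 by 0.60 ± 0.10 (adjusted p = 0.0145) and LYS12 by 0.57 ± 0.10 (adjusted p = 0.0160). These calls were lost without ard1 replicate 1 or ard1 replicate 2, and far fewer of all genes were called in those fits. The changes then were 0.72 and 0.68 for LYS20, 0.55 and 0.65 for LYS21 and 0.66 and 0.49 for LYS12. With single dot1 arrays left out, LYS12 was lost without dot1 replicate 1 (adjusted p = 0.0609), and LYS21 and LYS12 without dot1 replicate 2 (0.0506 and 0.0520), where LYS5 was called lower in ard1 (−0.67, adjusted p = 0.0460).

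Between ard1 and swi4, 3 of the 9 were called, against 15.3% of all genes (6.20% higher and 9.07% lower in ard1). LYS20 and LYS21 were higher in ard1, by 0.56 ± 0.11 (adjusted p = 0.0192) and 0.47 ± 0.10 (adjusted p = 0.0267). LYS9 was lower in ard1 than in swi4 by 0.62, with SE 0.09 and adjusted p = 0.00807. LYS12 at 0.35 ± 0.10 and LYS14 at 0.36 ± 0.10 lay just short of the threshold (adjusted p = 0.0575 and 0.0511), and quantile normalization called both, for 4 higher and 1 lower. When single arrays were left out, LYS20 kept its call only without swi4 replicate 2, LYS9 only without ard1 replicate 2, and LYS21 in no such fit. Far fewer of all genes were called in each of these fits. The changes ran from 0.43 to 0.69 for LYS20, from 0.37 to 0.56 for LYS21 and from −0.71 to −0.54 for LYS9. Between swi4 and dot1, limma called 0 of the 9, against 1.01% of all genes (0.367% higher and 0.642% lower in swi4), and 1 had an unadjusted p under 0.05, against 11.7% of all genes. That gene was LYS9, at 0.51 ± 0.09 higher in swi4 (adjusted p = 0.0663).

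**Figure D3:**
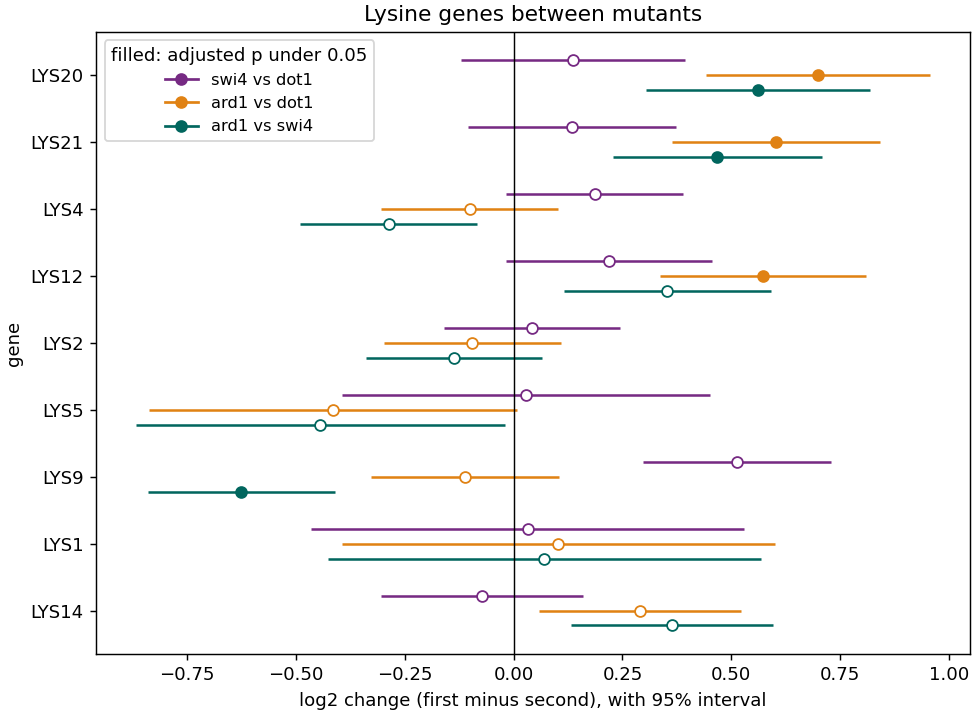
Log2 differences of the 9 lysine genes between mutants, first minus second, with 95% limma intervals; filled points passed the adjusted p threshold. LYS20 and LYS21 are higher in ard1 than in either other mutant, and LYS9 is lower in ard1 than in swi4.

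Other genes of lysine metabolism were taken from a list of 21, of which 20 were measured. Of these, 3 rose and 1 fell in ard1, 4 rose and 0 fell in swi4, and 1 rose and 0 fell in dot1. The shares of all genes called were 18.5%, 12.2% and 2.46%, so the ard1 count is near that of all genes. Their median changes were 0.05, −0.06 and −0.04, next to −0.07, −0.10 and −0.07 over all genes. Without either ard1 array the ard1 count was 0, without either swi4 array the swi4 count was 0 and without wt replicate 2 it was 1, and without wt replicate 2 or either dot1 array the dot1 count was 0.

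ODC1 and ODC2 encode the mitochondrial carriers of 2-oxoadipate and 2-oxoglutarate, which bring the pathway's intermediate to the cytosol. ODC2 read 10.92 and 10.77 on the wt arrays, 11.19 and 10.99 for dot1, 11.27 and 11.30 for swi4 and 11.43 and 11.33 for ard1. Its mutant arrays were all above both wt arrays. ODC2 rose by 0.53 ± 0.11 in ard1 (adjusted p = 0.0174) and by 0.44 ± 0.11 in swi4 (adjusted p = 0.0429). The ard1 call was lost without ard1 replicate 1 (adjusted p = 0.112) or 2 (0.0922), and the swi4 call without wt replicate 2 (0.132), swi4 replicate 1 (0.223) or swi4 replicate 2 (0.218).

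ODC1 read 10.29 and 9.99 on the wt arrays, 10.43 and 9.78 for dot1, 10.45 and 10.37 for swi4 and 9.34 and 9.14 for ard1. The ard1 arrays were the lowest, and the wt arrays lay within the spread of dot1. ODC1 fell in ard1 by 0.90 ± 0.22 (1.87-fold lower, adjusted p = 0.0335), opposite in sign to ODC2, and it was also lower in ard1 than in dot1 (adjusted p = 0.0452) and swi4 (adjusted p = 0.0172). The fall against wt was lost without wt replicate 1 (adjusted p = 0.0931), ard1 replicate 1 (0.109) or ard1 replicate 2 (0.187).

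ARO8 and ARO9 encode aromatic aminotransferases, and the Aro8 enzyme is known to act on aminoadipate as well. ARO8 stayed between 13.63 and 13.75 on the 8 arrays, and was not called in any mutant. ARO9 read 10.21 and 10.01 on the wt arrays, 11.05 and 10.88 for dot1, 10.68 and 10.72 for swi4 and 10.62 and 10.44 for ard1. It rose in dot1 by 0.86 ± 0.12 and in swi4 by 0.59 ± 0.12 (adjusted p = 0.0245 and 0.0268), with 0.42 ± 0.12 in ard1 (adjusted p = 0.0517). Both calls were lost without wt replicate 2 (0.0868 in dot1 and 0.0900 in swi4) or either array of the mutant itself, at adjusted p = 0.110 and 0.0738 without dot1 replicates 1 and 2, and at 0.162 without swi4 replicate 1 and without swi4 replicate 2.

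**Figure D4:**
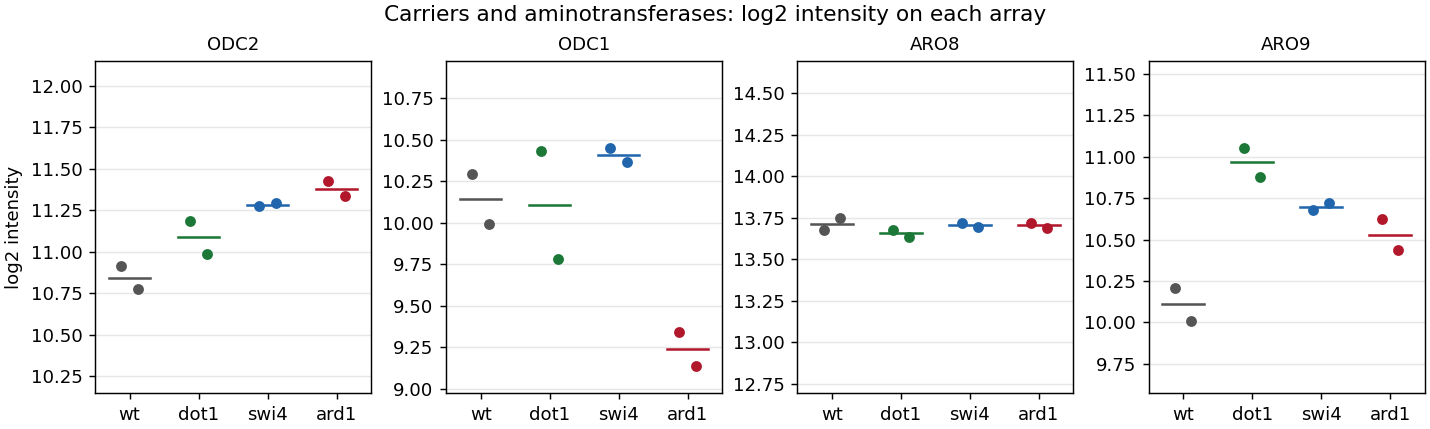
Log2 intensity of the carrier genes ODC2 and ODC1 and the aminotransferase genes ARO8 and ARO9 on each of the 8 arrays; points are arrays, bars are group means, and the panels span the same height. ODC1 is lowest on the ard1 arrays, at 9.34 and 9.14, while ODC2 is highest there.

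The 5 regulator genes were GCN4, MKS1, which encodes a repressor of the retrograde response, and RTG1, RTG2 and RTG3, which act in that response. Against wt, limma called 0 of them in any mutant, also at an unadjusted p under 0.05. Over all genes, 22.5% in dot1, 30.2% in swi4 and 32.3% in ard1 were under that p, and 2.46%, 12.2% and 18.5% were called. With only 5 genes, a count of 0 does not show that the regulators kept their level. GCN4 read 13.77 on average in wt and changed by 0.04, −0.13 and −0.07 in dot1, swi4 and ard1 (SE 0.08). MKS1 changed by −0.15, −0.31 and −0.05 (SE 0.22). RTG3 had the largest value of the 5 in ard1, 0.38 ± 0.18 (adjusted p = 0.199).

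Among 9 genes of basic amino acid transport, 2 rose in ard1, the same 2 in swi4, and 0 in dot1, next to 6.26%, 5.16% and 1.12% of all genes up. In dot1 limma gave 4 at an unadjusted p under 0.05, 2 higher and 2 lower, where 22.5% of all genes were under it. The risers were RTC2, a vacuolar membrane transporter gene of the PQ-loop family also called YPQ3, and VBA3. RTC2 rose by 1.07 ± 0.23 in ard1 (adjusted p = 0.0248) and by 1.82 ± 0.23 in swi4 (3.54-fold, adjusted p = 0.00757), with 1.07 ± 0.23 in dot1 (adjusted p = 0.0638). VBA3, a permease gene of basic amino acids, rose by 0.57 ± 0.09 in ard1 and 0.39 ± 0.09 in swi4 (adjusted p = 0.00794 and 0.0361), but its probe set is shared between transcripts and it read only 4.66 and 4.65 in wt. Without either swi4 array the swi4 calls of both genes were lost, and without either ard1 array the ard1 calls were. RTC2 was also lost in ard1, and VBA3 in swi4, without wt replicate 2 (adjusted p = 0.0649 and 0.0930). The lysine permease gene LYP1 changed by −0.17, −0.15 and 0.02 in dot1, swi4 and ard1 (SE 0.10), and KRS1 and MSK1, which encode the cytosolic and mitochondrial lysyl-tRNA synthetases, were not called in any mutant.

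Arginine and histidine synthesis, 2 routes that are also under general control, gave larger values. In ard1 5 of 8 arginine genes and 5 of 7 histidine genes rose and 0 fell, with medians of 0.77 and 0.90 next to 0.40 for the lysine genes. In swi4 4 and 3 rose (medians 0.48 and 0.53), and in dot1 2 and 2 rose (medians 0.33 and 0.34), with 0 falls. The shares of all genes called up were 6.26% in ard1, 5.16% in swi4 and 1.12% in dot1. HIS3, a gene that laboratory strains often carry as a marker, was among the histidine genes that rose in ard1 and swi4. The marker genotype of the strains was not tested. ARG1, the argininosuccinate synthetase gene, rose by 1.96 ± 0.14 in ard1, 1.83 ± 0.14 in swi4 and 0.88 ± 0.14 in dot1. HIS4, which encodes a multifunctional histidine enzyme, rose by 1.51 in ard1, 1.19 in swi4 and 1.23 in dot1 (SE 0.10). In ard1 and swi4 both genes passed with each array left out in turn. In dot1 ARG1 was lost without wt replicate 2 (adjusted p = 0.124), dot1 replicate 1 (0.128) or dot1 replicate 2 (0.0738), and HIS4 without dot1 replicate 2 (0.0543). The counts of called arginine genes were 3 to 6 in ard1, 1 to 4 in swi4 and 0 to 3 in dot1 over the fits with single arrays left out, and those of histidine genes 3 to 5, 1 to 3 and 0 to 2. They were lowest in swi4 without swi4 replicate 1 or 2, at 1 and 1 of each list, and in dot1 without dot1 replicate 2, at 0 of each. Whether the lists differed from each other was not tested.

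**Figure D5:**
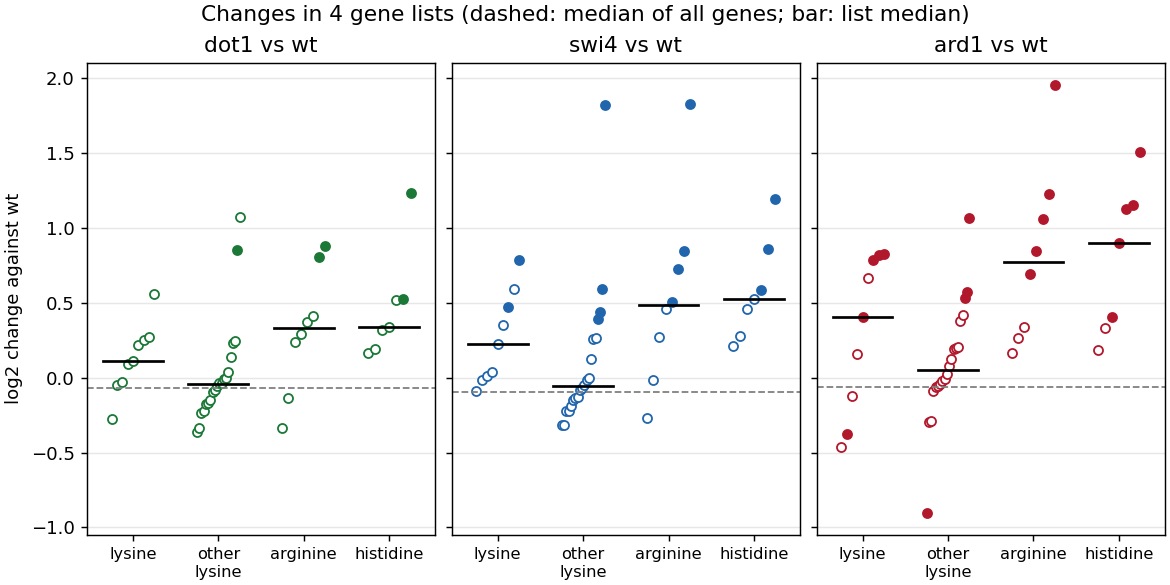
Log2 change against wt of each gene in 4 lists, the lysine genes, other genes of lysine metabolism, arginine synthesis and histidine synthesis; filled points passed the adjusted p threshold, bars are list medians and the dashed line is the median of all genes. In ard1 the lysine genes run from −0.46 to 0.82 around a median of 0.40, and the arginine genes from 0.16 to 1.96.

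To find genes with a like pattern, the mean of the 9 lysine genes, each centred on its own mean, was set against every other gene over the 8 arrays. Of the 5440 genes that are no members, ODC2, the oxodicarboxylate carrier gene, had the highest Pearson r, 0.99. It was followed by LDS2 (0.98), IRC21 (0.98), YNL208W (0.98) and ARG1 (0.97). These values are a description over 8 arrays that share 4 groups, and many genes separate wt from the mutants. The members themselves were less alike: against the mean of the other 8, LYS12 had r = 0.81, LYS21 0.77 and LYS1 0.69, while LYS4, LYS5 and LYS2 had −0.65, −0.52 and −0.40.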

How the data were processed

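Total RNA, extracted with hot acid phenol, gave biotin-labelled cRNA from 1 ug per sample, and each of 8 samples was hybridised to a 1-colour array, per the labels' protocols. What the authors deposited is a linear intensity for each probe set, which the submitters' processing notes credit to RMA (version not stated there), a method of background correction, quantile normalization and probe summary. That the scale is linear follows from the range, 15.2 to 35540, and log2 was taken with no filter on low values. Of 5814 probe sets, 5498 had 1 gene symbol; symbols were updated through an R64 gene table, and the probe set with the highest mean stood for each of 5449 genes. limma 3.58.1 in R 4.3.3 fitted 4 group means over 8 arrays (4 residual and 2.73 prior degrees of freedom; tested on simulated data). Calls were two-sided, at a Benjamini-Hochberg adjusted p under 0.05 over 5449 genes within each of 6 comparisons. With 2 arrays a group no exact permutation test (two-sided) can go below 0.333, so none was used. Members and lists were chosen with earlier results of these data known. All 9 members are described. Of the other genes of lysine metabolism, up to 4 called genes by size of change and all regulators were named. ODC2 is named as 1 of the 5 non-members most like the members (Pearson r). Of the arginine and histidine lists, changes were given only for ARG1 and HIS4, the gene with the largest change in each, though others were called. Listed genes that were not among those tested are not reported here. Promoter motifs, though planned, were not examined. Precision is limited by the number of arrays.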

Additional observations from a re-analysis of the deposited data

How the results depend on the processing

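Of the 13 calls among 54 changes of lysine genes over 6 comparisons, 2 were made whichever array was left out, the rises of LYS21 and LYS12 in ard1 against wt, and 0 of the 13 changed sign under any alternative run. With single arrays left out, the median change of the 9 genes against wt ran from 0.13 to 0.21 in dot1, 0.10 to 0.36 in swi4 and 0.32 to 0.44 in ard1. Between mutants it ran from 0.074 to 0.23 for swi4 against dot1, −0.078 to 0.26 for ard1 against dot1 and −0.089 to 0.23 for ard1 against swi4. In each of these fits between mutants fewer of all genes were called, so lost calls there are not particular to the lysine genes. With only the 2 groups compared in the fit, 1 was called in swi4, 3 in ard1 and 7 in ard1 against swi4. The shares of all genes called there were 3.23%, 7.43% and 40.9%. For ard1 against swi4, quantile normalization and leaving out the dimmest 25% of genes, LYS2 among them, gave 5 each. Quantile normalization called 1016 of the 5449 genes, 18.6%, next to 832 and 15.3% without it. The filter called 749 of the fewer genes that it left, so this total cannot be set directly against 832. The replicate numbers are not stated to mark shared batches, but replicate differences correlated across genes between all groups (r from 0.35 to 0.75). With the replicate block, 1 was called in dot1 (LYS1), 4 in swi4 and 7 in ard1 against wt. Over all genes 14.6%, 25.6% and 27.8% were then called, and dot1 calls went from 134 to 793. Between mutants, 1 was called in swi4 against dot1, 5 in ard1 against dot1 and 7 in ard1 against swi4. The shares of all genes there were 2.81%, 29.0% and 28.4%. Under the block LYS1 passed against wt in all 3 mutants (adjusted p = 0.0227, 0.0123 and 0.00613). LYS21 passed in swi4 (0.0437) and LYS5 as a fall in ard1 (0.0269). The mean of probe sets left every lysine count as it was; median centring and an intensity trend kept each within 1.5 times, though under the trend 4 of the 5 ard1 calls were shared, LYS14 being lost and LYS1 called (adjusted p = 0.0477). The cause of these differences was not tested. Changes that switched sign were all uncalled and at most 0.10 in size. Median centring gave 0.043 for LYS2, 0.028 for LYS5 and 0.039 for ODC1 in dot1 against wt, and 0.0091 for LYS4 and 0.083 for LYS5 in swi4 against wt. Quantile normalization gave 0.026 for LYS5 and 0.081 for ODC1 in dot1 and 0.066 for LYS5 in swi4. With single arrays left out, values in dot1 against wt ran from −0.070 to 0.0079 for LYS2, from −0.30 to 0.21 for LYS5 and from −0.36 to 0.29 for ODC1. In swi4 against wt they ran from −0.13 to 0.094 for LYS5, from −0.027 to 0.049 for LYS2 and from −0.038 to 0.12 for LYS14. Between mutants they ran from −0.23 to 0.28 for LYS5 and −0.17 to 0.24 for LYS1 in swi4 against dot1, and for LYS1 from −0.099 to 0.31 in ard1 against dot1 and from −0.089 to 0.23 in ard1 against swi4. Counts of the other lists were run under the same alternatives after their values were seen. Those of histidine genes in swi4 were 5 with the block, centring or quantile normalization, where 25.6%, 13.3% and 15.0% of all genes were called.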

Other observations

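Because LYS2 was dim on all arrays, other genes that laboratory strains often carry as markers were looked up after its value was seen. URA3 was as dim, from 4.28 to 4.44 over the 8 arrays, and LEU2 read 5.29 to 5.76. HIS3 (10.77 to 12.03), ADE2 (12.12 to 12.56) and MET17 (13.19 to 13.75) were well above the lowest values of the table. The low readings of LYS2, URA3 and LEU2 were shared by wt and the 3 mutants. TRP1 was not analysed here, and the marker genotype of the strains was not tested.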
